A study of Mus musculus with 8 samples.

Results

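Genes of the mouse eosinophil-associated ribonuclease (Ear) family and genes typical of alternatively activated macrophages were examined in palm skin, with and without PACAP treatment, in WT mice and in mice without the PACAP receptor (PAC1R KO). The members were Ear1, Ear2, Ear6, Ear10, Ear11, Retnla, Chil3, Mrc1 and Ccl24, and a gene was taken where a non-control probe of the array carried its name. This rule found 8 of these 9 names among 29608 gene names, each with 1 probe on 1 spot. No probe was named Ear11. RefSeq gives Ear11 as an older symbol of Rnase2a, which had 1 probe and is described beside the members without being counted among them. The members had been chosen from their ratios of PACAP over vehicle in these same arrays, so those ratios are given as a description with no test.

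The skin of the forepaws came from male WT mice (C57BL/6) and male PAC1R KO mice (Adcyap1r1 -/-, both copies of the receptor gene disrupted), 6 mice per genotype and 9 to 10 weeks old. All mice were anaesthetised, and the footpad received an intradermal injection of 5 µL of saline with 0.1% BSA, either with PACAP at 1e-07 mol/L or alone (vehicle). The groups were WT and KO at 30 min and at 60 min, each with a PACAP sample and a vehicle sample, which gave 8 RNA samples. Each PACAP sample was hybridised with its vehicle sample on 2 arrays with swapped Cy3 and Cy5 dyes, so each of the 4 comparisons rests on 1 pair of RNA samples read in both dye orientations. How many mice entered each RNA sample is not given in the sources used here, and the spread between the 2 arrays is technical. The arrays of the WT mice shared 1 slide and those of the KO mice a second one, and a genotype difference cannot be told apart from a slide difference.

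Eosinophils store cationic ribonucleases of the Ear family in their granules, and the mouse carries a cluster of such genes where humans have a few. Macrophages exposed to the type 2 cytokines IL-4 and IL-13 take up an alternatively activated state through the transcription factor STAT6, in which they make the resistin-like protein RELM alpha (Retnla), the chitinase-like protein Ym1 (Chil3) and the mannose receptor (Mrc1). Some of these cells also secrete eotaxin-2 (Ccl24), a chemokine that draws eosinophils through the receptor CCR3. Several of these genes are used by other cells of the skin, and Chil3 is also known from neutrophils and their precursors.

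The Ear probes were read first as sequences, because genes of this cluster are near copies of each other and a probe may bind more than 1 of them. The probes of Ear1, Ear12 and Ear10 are shown since the Ear12 probe shares a stretch with the Ear1 probe and another with the Ear10 probe. Over the 8 samples, levels had r = 0.99 for Ear1 and Ear12 and r = 0.44 for Ear12 and Ear10. Capitals mark the 19 bases shared by Ear1 and Ear12 and the 23 bases shared by Ear12 and Ear10.
Ear1: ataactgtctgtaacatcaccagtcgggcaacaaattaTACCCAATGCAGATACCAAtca
Ear12: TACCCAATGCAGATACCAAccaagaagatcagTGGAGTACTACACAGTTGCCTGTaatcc
Ear10: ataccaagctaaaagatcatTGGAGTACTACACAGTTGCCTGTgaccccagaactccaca
In the mm9 build the Ear1 probe lies at chr14:44396709-44396768 on the minus strand, the Ear12 probe at chr14:44680899-44680958 on the plus strand and the Ear10 probe at chr14:44500615-44500674 on the minus strand. The probes of Ear2 and Ear6 share 23 bases, marked in capitals in the stretches below.
Ear2: tttGCTGAATAGATCTTTTCTAATTA
Ear6: tcaGCTGAATAGATCTTTTCTAATTAataa
The Ear2 probe lies at chr14:44681119-44681178 and the Ear6 probe at chr14:52474253-52474312, both on the plus strand of mm9. The files' own list of transcripts for the Ear2 probe also holds the Ear1 transcript. Signals of Ear1, Ear2 and Ear12 may therefore contain RNA of more than 1 gene. This was not tested, and their values were not taken as independent measurements.

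The level of a probe is given below as log2 normalised intensity, the mean of its readings on the 2 arrays of a pair, and levels are compared between samples and not between probes. In the 8 samples the members differed in how often they were seen above the local background. Ear2, Ear10, Retnla, Chil3, Mrc1 and Ccl24 were well above background in all 16 readings, Ear1 in 14 and Ear6 in 12. The skin label was checked with the basal keratin genes, and Krt5 lay between 15.03 and 15.81 and Krt14 between 15.38 and 15.82.

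Retnla encodes a secreted resistin-like protein that is a standard marker of alternatively activated macrophages. Its level was 10.22 in the WT 30 min vehicle sample, 10.56 in WT 30 min PACAP, 10.54 in WT 60 min vehicle, 10.74 in WT 60 min PACAP, 10.35 in KO 30 min vehicle, 10.39 in KO 30 min PACAP, 13.20 in KO 60 min vehicle and 10.86 in KO 60 min PACAP. The KO 60 min vehicle sample stood 2.35 above the next sample, which is 5.09-fold, while the other 7 samples spanned 0.64. Its 2 readings were 13.28 and 13.13, so both dyes gave the high value. In the order of the levels below it, the readings of KO 60 min PACAP and WT 60 min PACAP overlapped, and so did those of WT 30 min PACAP and WT 60 min vehicle.

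Ear2, a ribonuclease of the eosinophil granule family, had the same outlying sample. Its level was 7.31 in WT 30 min vehicle, 7.29 in WT 30 min PACAP, 7.44 in WT 60 min vehicle, 7.64 in WT 60 min PACAP, 7.43 in KO 30 min vehicle, 7.91 in KO 30 min PACAP, 9.50 in KO 60 min vehicle and 7.78 in KO 60 min PACAP. The KO 60 min vehicle sample lay 1.59 above the next, KO 30 min PACAP, which is 3.01-fold. The other 7 samples spanned 0.62.

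Ear1, a close relative of Ear2, was dim. Its level was 6.46 in WT 30 min vehicle, 6.50 in WT 30 min PACAP, 6.51 in WT 60 min vehicle, 6.65 in WT 60 min PACAP, 6.52 in KO 30 min vehicle, 6.77 in KO 30 min PACAP, 7.82 in KO 60 min vehicle and 6.41 in KO 60 min PACAP. The KO 60 min vehicle sample was again the highest, 1.05 above the next, and the other 7 samples spanned 0.36. In both WT 30 min samples the probe was well above background on 1 of 2 arrays only.

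Chil3, which encodes the chitinase-like lectin Ym1, had another pattern. Its level was 7.07 in WT 30 min vehicle, 7.21 in WT 30 min PACAP, 7.35 in WT 60 min vehicle, 8.24 in WT 60 min PACAP, 7.75 in KO 30 min vehicle, 10.51 in KO 30 min PACAP, 9.80 in KO 60 min vehicle and 8.92 in KO 60 min PACAP. The highest sample was KO 30 min PACAP, 0.72 above KO 60 min vehicle. The 3 highest samples were from KO mice, and the readings of WT 60 min vehicle, WT 30 min PACAP and WT 30 min vehicle overlapped with their neighbours in the order.

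The remaining members varied less. Ear10 ranged from 9.57 in KO 30 min vehicle to 10.50 in KO 60 min vehicle, and its readings there overlapped with those of KO 60 min PACAP at 10.46. Ear6 ranged from 6.29 to 6.77, and its 2 readings of 1 sample were up to 0.39 apart. Mrc1, an endocytic receptor of tissue macrophages, ranged from 10.48 in WT 60 min PACAP to 11.10 in KO 30 min vehicle. Ccl24 ranged from 9.36 in WT 30 min vehicle to 10.63 in WT 60 min vehicle, and each of its 8 samples was clear of the next in the order of levels beyond its readings.

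**Figure D1:**
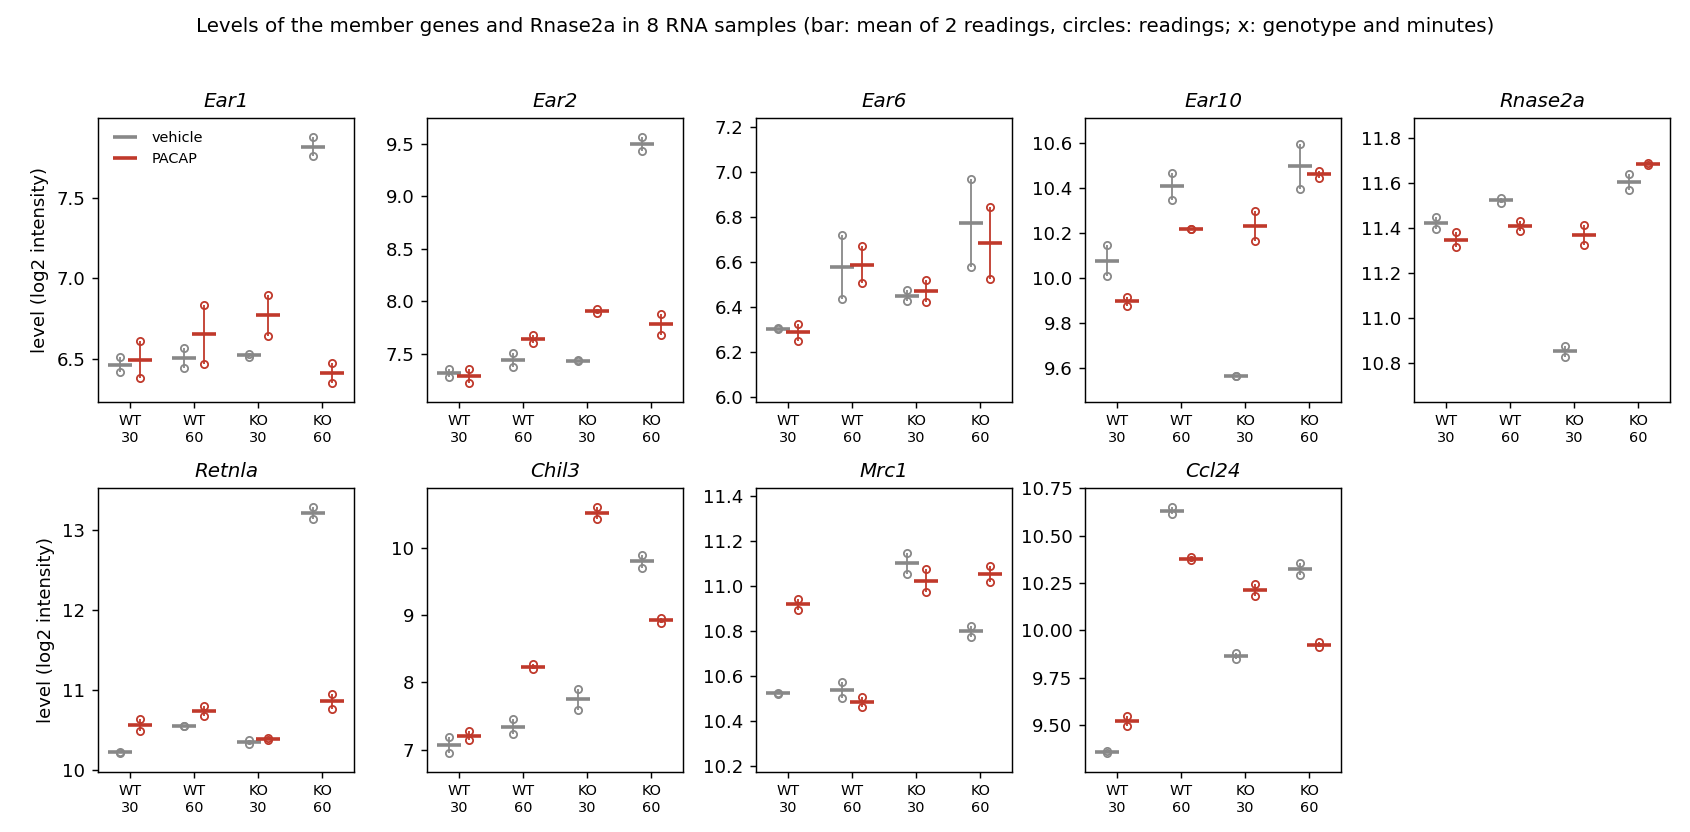
Levels of the 8 member genes and of Rnase2a in the 8 RNA samples, as log2 intensity on a separate vertical axis for each gene. Circles are the readings on the 2 arrays of a pair and bars are their means, grey for vehicle and red for PACAP. Retnla, Ear1 and Ear2 stand apart in the KO 60 min vehicle sample, at 13.20, 7.82 and 9.50, while Chil3 is highest in KO 30 min PACAP at 10.51.

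The ratios of PACAP over vehicle followed these levels. They were taken from the scanner software's log ratios, averaged over the 2 arrays of a pair, and a gene was counted when the mean reached 2.0-fold (up-regulated) or 0.5-fold (down-regulated), provided that both arrays pointed the same way and each had a scanner software p-value below 0.01. That p-value speaks of the spots of 1 array and not of mice. Turned to PACAP over vehicle, the 2 arrays of a pair correlated negatively over all probes, with r = -0.46 at WT 30 min, -0.48 at WT 60 min, -0.31 at KO 30 min and -0.54 at KO 60 min. Over the 20284 probes well above background in all readings the same values were 0.40, 0.36, 0.65 and 0.19. The dyes are stated in the labels, so the direction was kept, and the part of a ratio that followed the dye cancelled in the mean.

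At WT 30 min, 0 of 8 members were counted in either direction, beside 0.254% of all probes counted as up-regulated and 0.0964% as down-regulated. The median log2 ratio of the members was 0.06, beside 0 over all genes. Ear1 gave 2.20-fold on 1 array and 0.404-fold on the other at this time, and Ear6 gave 1.69-fold and 0.463-fold, so neither had a direction. Mrc1 had the largest ratio of the members, 1.32-fold.

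At WT 60 min, 1 of 8 members was counted as up-regulated, beside 0.583% of all probes, and 0 as down-regulated, beside 0.109%. This was Chil3, at 2.21-fold and 2.69-fold on the 2 arrays and 2.44-fold in the mean. With normexp and loess ratios its log2 ratio was 0.89 in place of 1.29, and it was not counted. Retnla was at 1.17-fold, Ear2 at 1.21-fold and Ccl24 at 0.820-fold. The median log2 ratio of the members was 0.21.

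At KO 30 min, 1 of 8 members was counted as up-regulated, beside 0.601% of all probes, and 0 as down-regulated, beside 0.107%. Chil3 was at 7.55-fold and 10.4-fold on the 2 arrays and 8.86-fold in the mean, the largest ratio of any member in any comparison. Ear1 at 1.75-fold, Ear10 at 1.63-fold and Ear2 at 1.57-fold lay under the threshold, and Retnla was at 1.03-fold. For Ear1 the 2 arrays gave 2.30-fold and 1.33-fold, and with normexp and loess ratios its log2 ratio was 0.25 in place of 0.80. The median log2 ratio of the members was 0.51.

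At KO 60 min, 3 of 8 members were counted as down-regulated, beside 0.15% of all probes, and 0 as up-regulated, beside 0.142%. Ear1 was at 0.209-fold and 0.124-fold on the 2 arrays and 0.161-fold in the mean. Retnla was at 0.200-fold and 0.182-fold, with a mean of 0.191-fold. Ear2 was at 0.234-fold and 0.237-fold, with a mean of 0.236-fold. Chil3 lay just outside the threshold at 0.516-fold, and Ear2 and the Chil3 value of 2.44-fold at WT 60 min were the counted values closest to it. The median log2 ratio of the members was -0.71.

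The low ratios at KO 60 min went with a high vehicle sample. In KO 60 min PACAP, the level of Retnla was 0.12 above that of WT 60 min PACAP, that of Ear2 was 0.14 above it, and that of Ear1 differed by -0.24. In the vehicle samples of the same time, KO minus WT was 2.66 for Retnla, 2.06 for Ear2 and 1.31 for Ear1. The fold of Ear1 also depends on the scale, since the levels, computed with an offset that damps dim probes, differed by -1.40 between KO 60 min PACAP and vehicle, while the scanner's log2 ratio was -2.63.

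**Figure D2:**
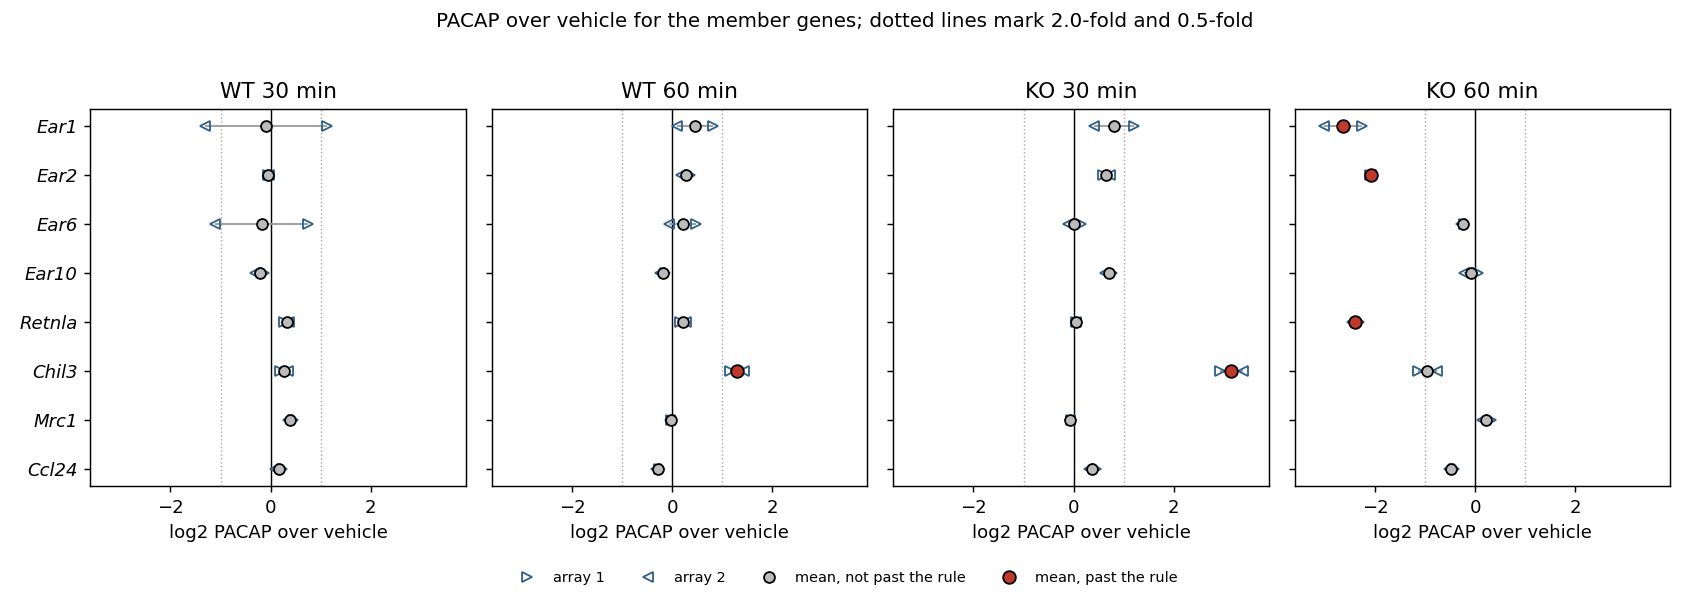
Log2 ratio of PACAP over vehicle for the 8 members in the 4 comparisons. Triangles are the 2 dye-swapped arrays, circles their mean (red where the gene met the counting rule), and dotted lines mark 2.0-fold and 0.5-fold. Ear1, Ear2 and Retnla lie below 0.5-fold at KO 60 min, Chil3 lies above 2.0-fold at WT 60 min and KO 30 min, and the arrays disagree in direction for Ear1 and Ear6 at WT 30 min.

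The KO 60 min vehicle sample stood apart in other genes as well. Of 39427 probes, 37 had a level in that sample at least 2-fold above the highest of the other 7 samples, and in the other samples this number was between 0 and 7. Retnla and Ear2 had the largest gaps of all 37, and Ear12 at 2.30-fold and Ear1 at 2.06-fold were also among them. A further 16 of the 37 were keratin-associated protein (Krtap) probes, which are genes of the hair shaft, and the remaining 17 carried other names. Most of these were predicted-gene, clone or probe names, such as Gm10229, Gm10228, Gm10061 and 1110025L11Rik. The split is by name only, and whether they are also Krtap genes was not checked. Over the 64 Krtap probes the median level was 10.99 in KO 60 min vehicle, 10.10 in KO 60 min PACAP and between 7.93 and 9.92 in the other 6 samples. The part that the make-up of this skin sample had in the Retnla and Ear values was not tested. In such bulk samples, more cells of a type and more RNA per cell cannot be told apart.

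**Figure D3:**
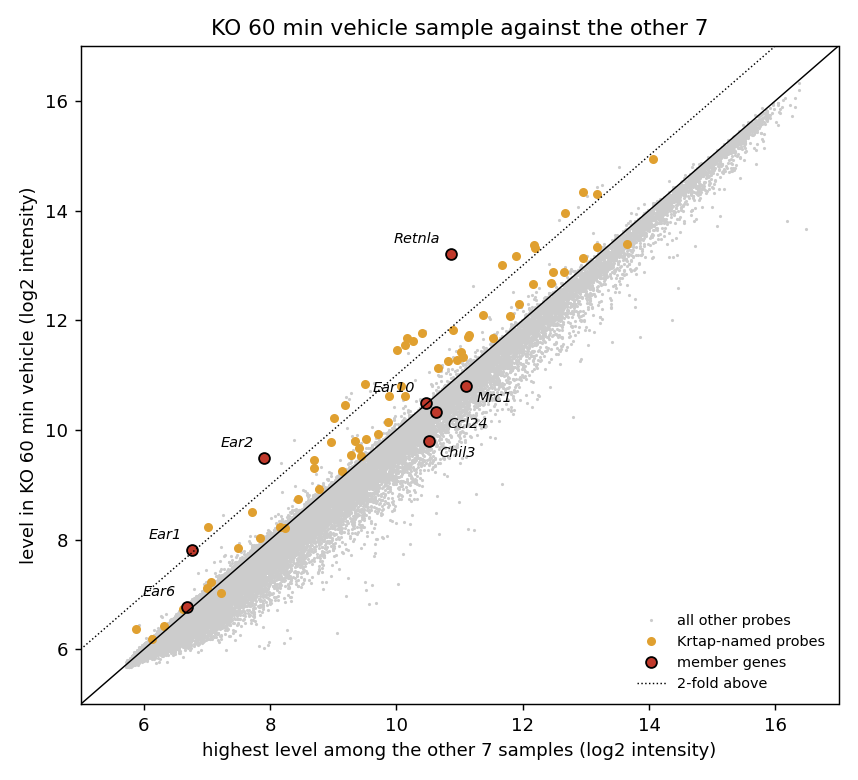
Level of each probe in the KO 60 min vehicle sample (vertical axis) against its highest level in the other 7 samples (horizontal axis), both as log2 intensity. Red points are members, orange points are Krtap-named probes, the solid line marks equal levels and the dotted line 2-fold higher. Retnla has the largest gap, 2.35, followed by Ear2 with 1.59.

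The relatives of the Ear genes fell into different patterns. Of 12 other measured genes of the RNase A family, 1 was counted as down-regulated at KO 60 min, and none passed the counting rule in the other comparisons. This gene was Ear12, at 0.252-fold and 0.217-fold on the 2 arrays and 0.234-fold in the mean. Its levels were 6.76 in WT 30 min vehicle, 6.86 in WT 30 min PACAP, 6.87 in WT 60 min vehicle, 7.05 in WT 60 min PACAP, 6.96 in KO 30 min vehicle, 7.25 in KO 30 min PACAP, 8.45 in KO 60 min vehicle and 6.97 in KO 60 min PACAP. Ear12 thus shared the high KO 60 min vehicle sample with Ear1 and Ear2. Its probe shares bases with that of Ear1 and, by the positions given above, lies close to that of Ear2 on the same strand. Whether the Ear12 probe measures RNA apart from that of Ear1 and Ear2 was not tested.

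Ear10 shares a longer run of bases with Ear12. The KO 60 min vehicle sample of Ear10 lay 0.03 above the next, and its ratio at KO 60 min was 0.947-fold. Ear6 shares its run with Ear2 and was at 0.840-fold. Rnase2a, whose older symbol is Ear11, was at 0.932-fold at WT 30 min, 0.889-fold at WT 60 min, 1.47-fold at KO 30 min and 1.05-fold at KO 60 min. Its level was 11.42 in WT 30 min vehicle, 11.35 in WT 30 min PACAP, 11.52 in WT 60 min vehicle, 11.41 in WT 60 min PACAP, 10.85 in KO 30 min vehicle, 11.37 in KO 30 min PACAP, 11.61 in KO 60 min vehicle and 11.69 in KO 60 min PACAP. The low sample of Rnase2a, KO 30 min vehicle, was also the lowest for Ear10 at 9.57 and for Rnase2b at 10.55. Ear4 and Ear7 were well above background in 4 and 2 of 16 readings and have no usable ratio.

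Across the 8 samples, which include both samples of each hybridised pair, the levels of Ear10 and Rnase2a had r = 0.93 and rho = 0.88, and r = 0.93 without the KO 60 min vehicle sample. Retnla and Ear2 had r = 0.96 and rho = 0.57. Without the KO 60 min vehicle sample r was 0.40 over 7 samples, and without the 2 samples farthest from the median of Retnla it was 0.20 over 6, so this likeness rests on 1 sample. For Retnla and Ear1 r went from 0.94 to -0.16 without that sample. For Ear2 and Ear12 it went from 0.99 to 0.88.

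**Figure D4:**
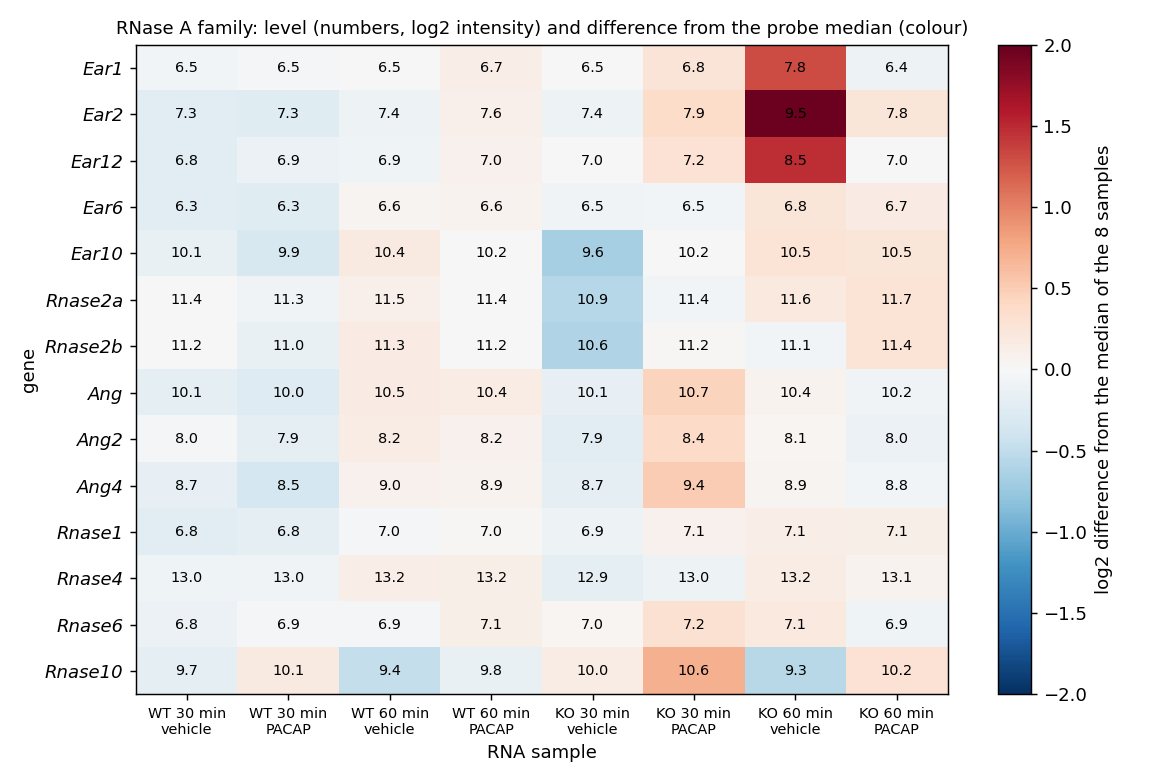
Levels of 14 genes of the RNase A family in the 8 RNA samples, with the level as log2 intensity written in each cell and the difference from the gene's own median over the 8 samples as colour. Ear1, Ear2 and Ear12 are high in the KO 60 min vehicle sample, while Ear10, Rnase2a and Rnase2b are lowest in KO 30 min vehicle.

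By the same measure, Pearson's r over the 8 samples among 20284 probes, the genes most like each of 4 members were named. For Retnla, they were an unnamed transcript (r = 0.96), Ear2 (r = 0.96) and Ear12 (r = 0.95). For Chil3, they were Arhgdib (r = 0.98), Zfp609 (r = 0.98) and Upp1 (r = 0.97). For Ear10, they were Mrap (r = 0.98), Hecw2 (r = 0.96) and Rhox10 (r = 0.96). For Mrc1, they were Zfp975 (r = 0.97), Jam2 (r = 0.97) and Pdxk (r = 0.97). With 8 samples and this many probes, such values are a description only.

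The genes that define eosinophils were near the limit of detection. Epx, the eosinophil peroxidase, was well above background in 5 of 16 readings and its level lay between 5.85 and 5.98. Prg2, the major basic protein, was above background in 10 readings, Siglecf, a sialic acid-binding receptor of eosinophils, in 9 and Ccr3, the eotaxin receptor, in 10. Of 12 other eosinophil genes measured, 0 were counted in any of the 4 comparisons, and their median log2 ratio was -0.46 at KO 60 min and between -0.05 and 0.13 in the other comparisons, beside 0 over all genes. In KO 60 min vehicle and PACAP, the level was 6.61 and 6.25 for Prg2, 6.47 and 6.29 for Siglecf, and 6.48 and 6.32 for Ccr3. The KO 60 min vehicle sample, which was high for Retnla, Ear1 and Ear2, was the highest of the 8 for 7 of these 12 genes. Prg2 and Siglecf were among the 7. So were Gfi1 and Adgre4, at 6.51 and 7.03, with KO 60 min PACAP close at 6.50 and 7.02. The share of all probes with their highest level in KO 60 min vehicle was not counted, so the 7 of 12 have no background. The KO 60 min ratio was 0.491-fold for Prg2, 0.498-fold for Ccr3, 0.519-fold for Alox15, 0.540-fold for Cebpe and 0.591-fold for Siglecf, and 9 of the 12 ratios were below 1. Prg2 and Ccr3 were past the 2-fold threshold but did not meet the rest of the counting rule, and all 5 except Cebpe, with 15 of 16 readings, were above background in 10 readings or fewer. Without Fcer1g, a bright gene that other myeloid cells also express, the summed intensity of the other 11 genes was 984 in KO 60 min vehicle and 889 in KO 60 min PACAP, and between 826 and 907 in the other 6 samples. With Fcer1g it was 3313 and 3550.

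Of 17 pan-macrophage genes, 0 were counted in any comparison. Adgre1, which encodes F4/80, was between 1.01-fold and 1.13-fold in the 4 comparisons, Csf1r, the receptor for the growth factor CSF1, between 0.840-fold and 1.25-fold, and Cd68, a lysosomal protein, between 1.08-fold and 1.25-fold. The summed intensity of the 17 genes was highest in KO 60 min vehicle, 38455, and 37308 in KO 60 min PACAP, while the other 6 samples lay between 29218 and 34092. Of 29 other genes of alternatively activated and resident macrophages, 1 was counted at WT 60 min and 1 at KO 30 min. Both times this was Chil4, a close relative of Chil3 among the chitinase-like genes, at 3.41-fold and 2.61-fold. Whether the Chil4 probe also binds RNA of Chil3 was not tested. Chil4 was above background in 12 of 16 readings, and its level was 6.38 with vehicle and 6.77 with PACAP at WT 60 min, a smaller difference than its ratio. Mgl2 and Clec10a, lectins of the same macrophages, were between 0.852-fold and 1.22-fold throughout.

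Genes of the type 2 response upstream of these markers were counted one by one. Of 15 eotaxins and type 2 cytokines, Ccl7 was counted as up-regulated at WT 30 min (2.48-fold) and Ccl17 at WT 60 min (2.55-fold). Ccl17, a chemokine for CCR4-bearing T cells, was also counted as down-regulated at KO 60 min (0.280-fold), and like Retnla it had its highest level in KO 60 min vehicle, 9.24, though WT 60 min PACAP was close at 9.17. Ccl11, eotaxin-1, was between 0.819-fold and 1.17-fold. Il4 was above background in 14 of 16 readings and Il5 and Il13 in 8 each, and none of these cytokine genes was counted. Of 13 receptors and signalling genes, Il1rl1, the receptor for IL-33, was counted at KO 30 min (7.32-fold), while Stat6 was between 0.774-fold and 1.07-fold. None of 7 genes of the mannose receptor family (Mrc2, Pla2r1, Ly75) and the collectins (Colec12, Colec10, Mbl1, Mbl2) was counted. Nor was any of 5 chitinase family genes other than Chil3 and Chil4, which were counted as given above.

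The KO 30 min comparison, in which Chil3 had its largest ratio, also held changes in markers of other cells. Of 11 neutrophil markers, 2 were counted there, S100a8 at 4.13-fold and S100a9 at 4.01-fold. The same genes were counted at KO 60 min, at 4.56-fold and 3.57-fold, where Chil3 was at 0.516-fold. The median log2 ratio of the 11 markers was 0.29 at KO 30 min and 0.14 at KO 60 min. Of the other 9 markers, 7 had a ratio above 1 at KO 30 min and 1 below, with a median log2 ratio of 0.22, and at KO 60 min 5 were above and 4 below. At KO 30 min Mmp8 was at 2.24-fold, above background in 9 of 16 readings and not counted, Ly6g at 1.92-fold and Camp at 1.51-fold, while Csf3r was the marker below 1, at 0.737-fold. The summed intensity of the 11 was 12959 in KO 30 min vehicle and 32826 in KO 30 min PACAP, and 14726 and 43222 in the KO 60 min samples. Without S100a8 and S100a9, the sum over the other 9 was 6276 and 6044 at KO 30 min and 5228 and 5759 at KO 60 min, and at KO 30 min this sum follows Csf3r, the brightest of the 9, at a level of 12.16 with vehicle and 11.75 with PACAP. Retnlg, a resistin-like gene known from neutrophils, was at 2.91-fold at KO 30 min. At KO 30 min, median log2 ratios were 0.43 for T and B cell markers, 0.37 for mast cell markers and 0.32 for pan-macrophage genes. They were 0.13 for other eosinophil genes and 0 for basophil markers, so a raised median was not particular to neutrophil markers. Of 8 keratinocyte markers, Krt1 at 0.455-fold and Krt10 at 0.365-fold were counted as down-regulated at KO 30 min, and so were Acta1 at 0.458-fold and Myh4 at 0.402-fold among 6 skeletal muscle markers. The median log2 ratio at KO 30 min was -0.62 for the keratinocyte markers, -0.77 for the muscle markers and -0.55 for 5 fibroblast markers, of which 0 were counted. At WT 30 min the muscle markers lay the other way, with Myh4 counted as up-regulated at 2.75-fold, a median log2 ratio of 0.71, and a summed intensity of 40143 with vehicle and 77470 with PACAP, while that of the fibroblast markers was 80690 and 105343. The part of these markers in the Chil3 ratio, and in the ratios of other genes in these comparisons, was not tested.

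Genes of classically activated macrophages, the inflammatory counterpart of the alternatively activated state, were counted in each of the 4 comparisons. Of 12 measured, 4 were counted as up-regulated at WT 30 min, 2 at WT 60 min, 3 at KO 30 min and 1 at KO 60 min, and 0 as down-regulated. Il6 was at 4.47-fold at WT 30 min and 3.80-fold at KO 30 min, and Il1b at 2.10-fold and 4.76-fold. Cxcl9 and Cxcl10, chemokines induced by interferon, were at 13.4-fold and 5.75-fold at WT 60 min, where Chil3 was counted. Chil3 was also counted at KO 30 min, where Cxcl9 and Cxcl10 were at 0.990-fold and 1.21-fold. Cxcl9 was above background in 10 of 16 readings. Its level at WT 60 min was 6.72 with vehicle and 9.05 with PACAP, a smaller difference than its ratio. Ptgs2, which encodes cyclooxygenase-2, was counted at WT 30 min (2.72-fold), and Fpr2, a formyl peptide receptor above background in 12 of 16 readings, at KO 30 min (7.47-fold) and KO 60 min (2.12-fold). The level of Fpr2 at KO 30 min was 6.20 with vehicle and 7.00 with PACAP, again a smaller difference than the ratio.

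Levels of KO and WT mice were compared on the mean of the PACAP and vehicle sample of each pair. The comparison used limma with time as a covariate over 30360 probes. The pair mean comes from the same readings as the ratio by which the members were chosen, and an extreme sample moves both. The p-values of the members are therefore no independent support. With 4 pair means, 0 probes passed an adjusted p below 0.05, where 3764 had an unadjusted p below that value, and 0 of 8 members were called, beside 0.0% of all probes. On simulated levels this fit did not recover differences as small as the fold threshold, so the absence of calls does not show that levels were equal. Chil3 was 1.78 higher in KO (SE 0.14, limma adjusted p = 0.398), with a difference of 1.99 at 30 min and 1.57 at 60 min. In each of the 4 settings of time and injection the KO sample had more Chil3 than the WT sample, by 0.68 at 30 min and 2.45 at 60 min with vehicle, and by 3.30 and 0.68 with PACAP. Mrc1 was 0.38 higher in KO (SE 0.07, limma adjusted p = 0.398), and higher in each of the 4 settings, by 0.11 to 0.58.

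For Retnla the difference was 0.68 (SE 0.40, limma adjusted p = 0.508), made up of -0.02 at 30 min and 1.39 at 60 min. Ear2 differed by 0.73 (SE 0.22, limma adjusted p = 0.398), with 0.37 at 30 min and 1.10 at 60 min. Both differences at 60 min contain the high vehicle sample, and with the PACAP samples alone Retnla differed by -0.17 at 30 min and 0.12 at 60 min, and Ear2 by 0.62 and 0.14. The receptor gene Adcyap1r1 itself was measured by 1 probe whose place relative to the deleted part is not given in the sources used here, so it checks no label. Its level was between 7.91 and 8.56 in KO samples and between 8.26 and 8.76 in WT samples, a difference of -0.28 (SE 0.07, limma adjusted p = 0.398).

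Time was tested in the same way, with genotype as covariate. Again 0 probes were called, where 5369 had an unadjusted p below 0.05, and 0 of 8 members, beside 0.0% of all probes. This count depends on the processing, since limma called 491 of 30360 probes for time from the processed signals. Ear10 was 0.45 higher at 60 min (SE 0.10, limma adjusted p = 0.231), by 0.33 in WT and 0.58 in KO. Ccl24 was 0.58 higher at 60 min (SE 0.28, limma adjusted p = 0.409), by 1.07 in WT and 0.09 in KO. Mrc1 was the only member with a lower level at 60 min in the fit, -0.17 (SE 0.07, limma adjusted p = 0.338).

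The promoters of the members were compared for the letters TTCNNNNGAA, the form of site bound by STAT6, since Retnla is a classical target of that factor. Windows of 250 bases before to 50 bases after the start of the gene (RefSeq, GRCm38.p6) were at hand for 8 genes, 7 members and Rnase2a. The motif, which reads the same on both strands, was found in 1 of them, Retnla, 145 bases before the start, and in 6.95% of 32851 such windows of all genes. The stretch around it, at chr16:48842404-48842533 on the plus strand, is shown with the match in capitals.
Retnla: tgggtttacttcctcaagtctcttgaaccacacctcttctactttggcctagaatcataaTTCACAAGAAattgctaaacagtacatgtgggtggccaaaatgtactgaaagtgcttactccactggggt
The windows of Ear1, Ear2, Ear6, Ear10, Chil3, Mrc1 and Rnase2a did not hold these letters. A match is a likeness of letters and was not tied to any measurement here.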

How the data were processed

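Palm skin RNA was hybridised on 8 two-colour Agilent arrays with 44397 spots each, of which 1377 were controls. Images were read by the authors with Agilent Feature Extraction (12.0.3.1 per the file headers, 11.0.1.1 in the submitters' processing notes). The log10 ratios (red channel over green) deposited for each spot were background-corrected and LOWESS-normalised by the authors' software, which set 13.4% to 25.0% of them to 0. The deposited p-value comes from its error model and speaks of 1 array. The deposited intensity values are mean signals, local backgrounds and processed signals per channel. There were 0 saturated spots, and the share of spots well above background was 78.6% to 94.5% in red and 54.0% to 65.3% in green. The number of arrays limits the precision. The series matrix of the authors holds log10 ratios of the processed signals and served as an alternative.

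Outlier spots were left out (198 to 342 per array), ratios were turned to PACAP over vehicle by the labelled dyes and averaged over both arrays. Levels were computed with limma 3.58.1 in R 4.3.3 from mean signals by normexp (offset 50), then loess for each array and Aquantile across arrays. They were tested with lmFit, eBayes and Benjamini-Hochberg adjustment (adjusted p below 0.05). A probe entered these fits when every array had it well above background in red, green or both. Probe positions are mm9, as in the files, and the promoter stretch is GRCm38.p6. Where a gene of a list has several probes, the value shown is that of the probe with the highest mean level, and the gene was counted if any of its probes was. One gene of the set is not reported here and enters no count or median of the members. All other members were named, with list genes past the counting rule, defining markers fixed by name, and for 4 members the 3 genes of highest r; further list genes, Krtap probes and the correlations given without a sample were chosen after their values were seen. The members and the lists were chosen with earlier results of these data known. Python 3.11.15 with numpy 2.4.6, pandas 2.3.3 and matplotlib 3.10.9 was used. The steps were tested on simulated data. The alternatives were other p and fold filters, normexp and loess ratios, centring, dim and outlier filters, the series matrix, single arrays, and other normalizations and sample sets for the levels.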

Additional observations from a re-analysis of the deposited data

Results flagged for a closer look

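Ccl24 was above 1-fold on all 4 arrays at 30 min and below 1-fold on all 4 arrays at 60 min. Its mean log2 ratio of PACAP over vehicle was 0.26 at 30 min and -0.38 at 60 min, and the difference was 0.64. It was picked because all arrays of the one time lay on the opposite side from all arrays of the other. The difference was not tested, the 4 arrays of a time hold 2 pairs of RNA samples, and no ratio of Ccl24 reached the fold threshold.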

How the results depend on the processing

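No paired analysis was possible because the numbers 1 and 2 in the labels mark the 2 dye orientations of the same RNA pair. Of 80 recomputed counts of members, 76 stayed within 1.5 times of the count given. With normexp and loess ratios 0 members were up-regulated at WT 60 min in place of 1, where Chil3 had a log2 ratio of 0.89. With the threshold at 1.5-fold, 3 members were up-regulated at KO 30 min. With single arrays, the members counted ranged from 0 to 1 as down-regulated at WT 30 min and from 1 to 2 as up-regulated at KO 30 min. As down-regulated at KO 60 min there were 4 members at 1.5-fold and 3 to 4 with single arrays, in place of 3. Under the alternatives the log2 ratios of Ear1, Ear2 and Retnla there ran from -3.01 to -1.40, from -2.10 to -1.72 and from -2.46 to -2.32.

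From the processed signals, limma called 2 probes for genotype and 491 for time in place of 0, and the cause was not tested. With vehicle samples only, the genotype difference of Ear10 became -0.21. With PACAP samples only, an alternative added after the data were seen, the genotype difference of Retnla became -0.027, and the time differences of Chil3 and Ear1 became -0.28 and -0.10. The fit without each pair could not be made, since it leaves no residual degrees of freedom, and the differences within each time and genotype are given instead. Each comparison rests on 1 pair of RNA samples, so no spread between mice was measured, and dim probes such as Ear1, Ear6 and Epx limit what the arrays can show.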
